A study of Mus musculus with 9 samples.

Results

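This comparison asks what the loss of IκBα changed in EphB2-positive cells of the neonatal mouse intestine: 3 knockout (KO) libraries were set against 2 wild-type (WT) libraries, 5 of the 9 RNA-seq libraries of the series, and described across all genes. Both groups came from C57BL/6 mice at postnatal day 6, from intestine that was brought to a suspension of single cells and sorted by EphB2 with an antibody that the labels describe as raised to the human protein. The labels give the genotypes as wild type and IkBa KO. They name no Cre driver and no restriction of the deletion to a tissue. The transcript of IκBα was not detected in the sorted KO cells, as given below. Whether other cells of the animal also lost it is not known. Effects of its loss in the sorted cells and in other cells therefore cannot be told apart. Both groups share the strain, the age and the sort. The labels do not say whether each replicate is its own animal, and the p-values therefore describe the spread among these samples, which may be technical.

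IκBα, encoded by Nfkbia, keeps NF-κB inactive by binding its dimers outside the nucleus. Signals from bacterial products or from cytokines such as TNF activate a kinase complex that marks IκBα for destruction by the proteasome, and the freed NF-κB enters the nucleus and turns on genes of inflammation and survival, Nfkbia itself among them. EphB2 is a receptor tyrosine kinase, a Wnt target that is highest on stem and progenitor cells at the crypt base and falls as cells move toward the villus. In the suckling mouse the villus epithelium lives on milk: it burns fatty acids, makes ketone bodies and arginine precursors, and takes up protein whole, and mature Paneth cells appear only after the first postnatal weeks.

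STAT factors, interferon-activated complexes and NF-κB act through short promoter motifs, known as GAS, ISRE and κB sites. The sequences below, 5′ to 3′ from RefSeq (GRCm38), are shown because they belong to genes that rose in KO and hold such matches. Each starts 160 bases before the annotated start of transcription and ends at the start or at the first exon that GENCODE places there. Capitals mark matches to TTCNNNGAA (GAS), GAAANNGAAA (ISRE) or the 10-base κB motif, searched on both strands.
Igtp (chr11:58199396-58199555, plus strand): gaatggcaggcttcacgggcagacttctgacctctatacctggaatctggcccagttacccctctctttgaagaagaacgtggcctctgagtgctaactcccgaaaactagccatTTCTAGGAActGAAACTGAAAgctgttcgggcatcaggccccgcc
Irgm2 (chr11:58214817-58214976, plus strand): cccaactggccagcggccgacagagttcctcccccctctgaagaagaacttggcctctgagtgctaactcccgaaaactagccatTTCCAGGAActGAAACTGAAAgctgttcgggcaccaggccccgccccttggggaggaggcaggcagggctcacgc
Tgtp1 (chr11:48992259-48992406, minus strand): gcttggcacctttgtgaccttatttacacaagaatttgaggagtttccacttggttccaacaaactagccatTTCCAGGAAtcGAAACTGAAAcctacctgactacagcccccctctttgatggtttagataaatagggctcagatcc
Reg3b (chr6:78370725-78370860, plus strand): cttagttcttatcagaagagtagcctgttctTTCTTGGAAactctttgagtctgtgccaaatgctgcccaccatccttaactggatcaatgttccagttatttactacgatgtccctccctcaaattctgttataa
Reg3g (chr6:78468875-78469034, minus strand): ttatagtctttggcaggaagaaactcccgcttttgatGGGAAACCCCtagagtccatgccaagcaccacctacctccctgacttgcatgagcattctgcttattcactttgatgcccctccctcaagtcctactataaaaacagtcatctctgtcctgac
Socs3 (chr11:117969452-117969526, minus strand): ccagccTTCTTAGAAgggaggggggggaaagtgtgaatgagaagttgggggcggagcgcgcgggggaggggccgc
Irf1 (chr11:53769854-53770013, plus strand): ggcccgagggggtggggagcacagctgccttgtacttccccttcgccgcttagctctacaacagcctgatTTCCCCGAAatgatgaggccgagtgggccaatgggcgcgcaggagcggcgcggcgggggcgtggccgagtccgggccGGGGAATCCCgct

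In Igtp, Irgm2 and Tgtp1, which encode GTPases that act against parasites inside cells, a GAS match was followed 2 bases later by an ISRE match. The GAS match began 45, 75 and 88 bases before the start. Reg3b and Socs3 held a GAS match, 129 and 154 bases before the start, Reg3g a κB match 123 bases before it, and Irf1 a GAS and a κB match at 90 and 13 bases; the window at the other annotated start of Irf1 held no match. Over the 250 bases before each start, 9 of the 10 tested genes of the GTPase list with a RefSeq promoter held an ISRE match and 6 held a GAS match, against 3.04% and 7.12% of the 8023 tested genes with a promoter. Of the list of genes known to be induced by NF-κB, 12 of 24 held a κB match, against 10.5% of tested genes. Among the 1465 genes higher in KO with a promoter the κB share was 10.9%, and among the 1431 lower in KO it was 11%. The shares were 8.26% and 6.15% for GAS and 4.51% and 2.45% for ISRE, in the same order. A match is a stretch of letters and was not tested as a binding site.

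Each of the 5 libraries had between 1503972 and 2074076 reads assigned to genes, and between 13120 and 13962 genes were detected with 1 read or more. Levels are given as CPM, the count of a gene relative to the library total scaled by edgeR for depth and make-up of the library. In a single library 3 reads correspond to 1.49 to 2.08 CPM, which sets how low a level could be told from 0. No molecular identifiers were used on the amplified cDNA, so counting intervals (95%) and lower bounds cover counting error only. Of Nfkbia (chromosome 12, 55489410 to 55492647 on GRCm38, minus strand), WT replicates 1 and 2 gave 58 and 163 reads and each KO library 0, at least 101-fold lower against a floor of 3 reads over the KO group. The test on the 5 libraries did not call it (edgeR adjusted p = 0.17), and the fit to all 9 libraries did (adjusted p = 0.015). Ephb2, the sort marker, stood at 149 and 167 CPM in WT and 189.7, 190.4 and 178 CPM in KO and did not pass. Epcam, of epithelium, stood at 1662 and 1645 CPM in WT and 1158, 1115 and 1231 CPM in KO and was called lower (log2 fold change -0.50 ± 0.09, adjusted p = 1.5e-04), but not with all 9 libraries (adjusted p = 0.16). Of 14 tested epithelial identity genes 1 rose and 7 fell, or 0 and 1 with all 9 libraries. The defining leukocyte markers were at or near 0, with 1 read of Ptprc (CD45) in 5 libraries, none of Cd3e, Adgre1, S100a8 and Cpa3 and 2 of Cd79a. Hbb-bs, of red cells, had 0 reads, and Pecam1, of endothelium, 4 reads. The endothelial list summed to 15.95 and 15.4 CPM in WT and 13.9, 12.4 and 17.1 CPM in KO. Its 1 tested gene fell, also with all 9 libraries. The T cell and cytotoxic lymphocyte list summed to 60.2 and 57.99 CPM in WT and 31.96, 18.8 and 22.999 CPM in KO. Of its 2 tested genes 0 rose and 1 fell, also with all 9 libraries. Whether these reads came from such cells was not tested. Of 20 fibroblast and smooth muscle genes 7 were tested, of which 0 rose and 1 fell, or 0 and 0 with all 9 libraries. WT replicate 1 held 22 reads of Dclk1 and 26 of Trpm5, markers of tuft cells, where each other library held 2 or fewer of either.

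A large part of the transcriptome differed between the genotypes, in both directions. Of 10399 genes tested, 1853 (17.8%) rose and 1881 (18.1%) fell, 35.9% in all (edgeR quasi-likelihood test, Benjamini-Hochberg adjusted p under 0.05, 5 libraries). Changes of more than 8-fold were found in 85 of the genes that rose and 94 of those that fell. The 3 KO libraries lay above both WT libraries in 2964 genes and below both in 3057. The median log2 fold change was -0.01. Component 1 of log2 CPM, with 77.2% of the variance, separated the genotypes, and r across genes was 0.967 between the WT replicates, 0.973 to 0.980 between KO replicates and 0.865 to 0.880 between genotypes. The spread in this test comes from these 5 libraries alone. In a fit to all 9 libraries, 812 of 11577 genes tested rose and 934 fell. The 2 WT EphB2-negative libraries in that fit differ from each other. A fit to 8 libraries left out WT EphB2-negative replicate 1. It held 1 library of that group, which adds no spread, so its counts are not set beside these. With the 5 libraries DESeq2 called 1233 and 1124. Counts that a list keeps with all 9 libraries are given beside it where they differ by more than 1.5 times. They are to be read against the drop over all genes. In the same way, the counts of each list are to be read against the 17.8% that rose and the 18.1% that fell over all genes tested. Of the 10399 genes, 800 were called higher and 907 lower with all 9 libraries, against 1853 and 1881 with the 5.

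**Figure D1:**
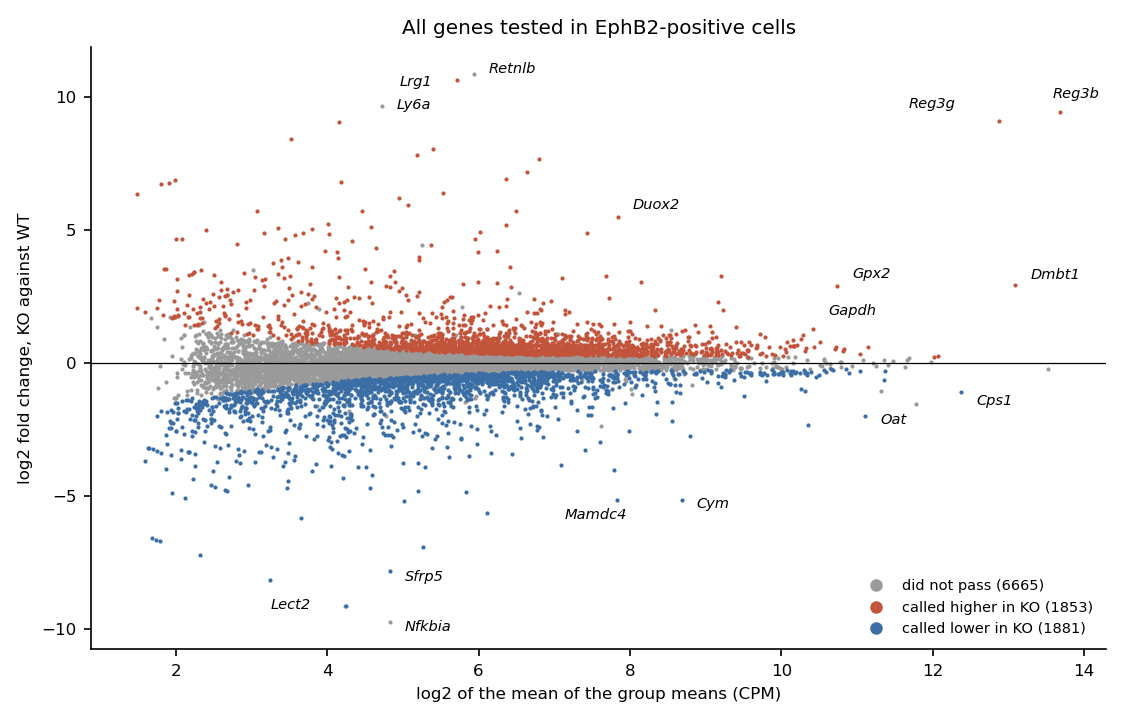
Log2 fold change of KO against WT (vertical axis) plotted against the log2 of the mean CPM of the groups (horizontal axis) for the 10399 genes tested; red points were called higher in KO (1853), blue points lower (1881), grey points did not pass. Reg3b and Reg3g stand alone at the top right, and the fold changes of genes with 0 reads in a group (Nfkbia, Retnlb, Ly6a, Lrg1, Lect2) depend on the prior count of the fit.

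Many genes of secreted antimicrobial proteins rose. Reg3b, a secreted lectin active against bacteria, stood at 26.8 and 48.8 CPM in WT and 27826, 24972 and 26084 CPM in KO, and Reg3g, its close relative that binds Gram-positive bacteria, at 22.6 and 32.3 CPM in WT and 16253, 13777 and 14952 CPM in KO. No WT library came near a KO library, and the log2 fold changes were 9.44 ± 0.21 and 9.09 ± 0.16 (adjusted p = 4.8e-12 and 4.7e-20). The 10 most abundant genes took 8.42 to 9.23% of reads in KO and 5.19 to 5.33% in WT. Of the 21 tested members of the antimicrobial and acute phase list, 12 rose and 3 fell, with a median log2 fold change of 3.50 (3.28 with bounds in place of fits for genes at 0 reads). Another 18 members were too low to test. Members near 0 reads in WT could enter the test only through their KO reads, so the count and the median describe the tested members alone. C3, the central complement protein, rose to 177 ± 16.3 against 3.34 ± 1.81 CPM, and Dmbt1, a mucosal scavenger protein that clumps bacteria, to 15405 ± 1604 against 1998 ± 621 CPM. Lbp, which carries lipopolysaccharide, had 2 reads in WT and rose by a KO to WT ratio of 37.99 (counting interval 10.3 to 318). Among genes of secreted phospholipases, Pla2g5, at 0 reads in WT, rose at least 47.2-fold, and Pla2g2a rose from 1 read by a KO to WT ratio of 67.95 (counting interval 11.9 to 2712). GENCODE types Pla2g2a as a polymorphic pseudogene, and whether it makes an enzyme in these mice was not tested. It lies within the span of Pla2g5 on the other strand, the strand setting is not known, and reads could be shared. Lrg1, an acute phase glycoprotein at 0 reads in WT, rose at least 142-fold, and Lcn2, which starves bacteria of iron, had 3 WT reads and a KO to WT ratio of 79.4 (counting interval 26.9 to 387). Retnlb, a goblet cell protein, had 0 reads in WT and 45.9, 122 and 199.5 CPM in KO; it did not pass with the 5 libraries (adjusted p = 0.11) and passed with all 9 (adjusted p = 0.012). The members that fell were Nlrp6, an inflammasome sensor (162 ± 12.7 against 299.6 ± 19.02 CPM), Cfb, complement factor B (83.8 ± 9.18 against 169.6 ± 38.2 CPM), and Reg4 (11.1 ± 6.61 against 42.9 ± 9.17 CPM), a lectin of secretory cells. Lrg1 lost its call when WT replicate 1, WT replicate 2 or KO replicate 3 was left out, and Lcn2 when WT replicate 1, WT replicate 2 or KO replicate 1 was left out. Reg4 did not pass with all 9 libraries (adjusted p = 0.054).

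Enzymes that make hydrogen peroxide and nitric oxide at the epithelial surface rose together with enzymes that detoxify peroxide. Duox2, the dual oxidase of the gut surface, stood at 11.3 and 8.21 CPM in WT and 446, 432 and 462 CPM in KO, and Gpx2, the epithelial glutathione peroxidase, at 433 and 373 CPM in WT and 2888, 3283 and 2839.6 CPM in KO. The libraries of a genotype were close to each other and the genotypes did not overlap (log2 fold changes 5.51 ± 0.17 and 2.90 ± 0.11, adjusted p = 7.5e-16 and 3.5e-14). Duoxa2, which brings Duox2 to the surface, rose to 164 ± 8.55 against 1.28 ± 0.361 CPM, Nox1, a superoxide-generating oxidase, to 91.003 ± 12.8 against 1.03 ± 0.729 CPM, and Duox1 to 20.99 ± 4.28 against 1.29 ± 0.366 CPM. Nos2, the inducible nitric oxide synthase, stood at 0 and 2.57 CPM in WT and 37.5, 52.1 and 49.7 CPM in KO. In all, 9 of 10 tested members of the oxidase list rose and 0 fell, and the one that did not pass was Noxo1, the organiser of Nox1, at 128 ± 12.4 against 105 ± 2.75 CPM. The list holds 20 genes, and 10 of them were too low to test. Members near 0 reads in WT could enter the test only through their KO reads, so the count describes the tested members alone. Gsr, glutathione reductase, which returns glutathione to its reduced form for Gpx2, rose to 956 ± 123 against 195 ± 4.75 CPM.

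Several components of cytokine signalling through STAT3, and of the fucosylation of surface glycans that IL-22 is known to induce, also rose. Fut2, the fucosyltransferase that decorates the gut surface, stood at 6.69 and 8.72 CPM in WT and 131, 123 and 175 CPM in KO, and Socs3, the feedback inhibitor that STAT3 induces, at 7.72 and 17.96 CPM in WT and 173, 149 and 149 CPM in KO. Both lay more than 8-fold higher in each KO library than in either WT library (log2 fold changes 4.20 ± 0.23 and 3.60 ± 0.22, adjusted p = 3.98e-11 and 1.4e-09). Stat3 itself rose to 158 ± 19.2 against 41.4 ± 0.446 CPM, the kinase Pim1 to 58.5 ± 5.15 against 15.9 ± 2.15 CPM and Il18bp, a secreted inhibitor of IL-18, to 29.8 ± 0.838 against 1.54 ± 0.7299 CPM. Of the 28 tested members of the IL-22, IL-17 and STAT3 list 10 rose and 6 fell, with a median log2 fold change of 0.28. With all 9 libraries 10 rose and 1 fell. The receptor subunit Il17ra stood at 23.5 ± 3.51 against 20.04 ± 0.0401 CPM and did not pass. Of 27 tested mucin and glycosylation genes 15 rose and 4 fell, or 9 and 3 with all 9 libraries. B3galt5, a galactosyltransferase that is not in this list, stood at 1.54 and 1.03 CPM in WT and 225, 189 and 179.7 CPM in KO. Of the list, Gmds and Slc35c1, which make GDP-fucose and bring it into the Golgi, rose to 491 ± 41.8 against 253 ± 6.76 CPM and 186 ± 7.42 against 87.9 ± 14.4 CPM. C1galt1, which builds the core of O-glycans, rose to 72.6 ± 9.92 against 23.9 ± 5.403 CPM. Of the 4 that fell, 3 add sialic acid: St3gal1 stood at 318 and 510.1 CPM in WT and 45.2, 14.4 and 20.3 CPM in KO, St6gal1 at 0.641 ± 0.701 against 12.3 ± 0.702 CPM and St6galnac1 at 2.003 ± 0.557 against 31.1 ± 2.61 CPM. The fourth was Fuk, which salvages fucose, at 38.6 ± 1.68 against 52.4 ± 9.34 CPM. Fuk lost its call in 11 of 13 alternatives, all 9 libraries among them (adjusted p = 0.15), and St3gal1 lost it without KO replicate 3.

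Most tested interferon-inducible GTPases, which guard against intracellular microbes, rose. The list holds 22 genes, and 10 of them were too low to test. Among the 12 tested members 11 rose, 0 fell, and the median log2 fold change was 4.79 (4.32 with bounds for those at 0 reads). Members near 0 reads in WT could enter the test only through their KO reads. The count and the median therefore describe the tested members and not the whole family. Igtp stood at 6.18 and 2.05 CPM in WT and 131, 142 and 104 CPM in KO and Irgm1, a regulatory member, at 50.95 and 37.5 CPM in WT and 179.95, 209 and 149 CPM in KO. The genotypes did not overlap for either gene (log2 fold changes 4.91 ± 0.28 and 2.02 ± 0.17, adjusted p = 2.95e-10 and 5.2e-08). Irgm2 rose to 69.5 ± 20.6 against 4.37 ± 1.83 CPM and Iigp1 to 65.95 ± 19.9 against 1.03 ± 0.00206 CPM. Tgtp1 and its neighbour Tgtp2, so alike that counting could split their reads, each had 1 WT read and rose, Tgtp1 by a ratio of 335 (counting interval 59.8 to 13246) and Tgtp2 by one of 288 (counting interval 51.4 to 11399). Gm12250 rose from 3 reads by a KO to WT ratio of 56.99 (counting interval 19.3 to 278). Irgq, a divergent member, stood at 21.6 ± 2.85 against 26.2 ± 2.85 CPM and did not pass.

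Many genes of the machinery that cuts, transports and presents peptides on MHC class I rose as well. Tap1, the peptide transporter of the endoplasmic reticulum, stood at 35.5 and 32.3 CPM in WT and 158, 207 and 172 CPM in KO, and the immunoproteasome subunit Psmb8 at 45.8 and 33.9 CPM in WT and 181, 195 and 198 CPM in KO. Of 27 tested members of the class I list 15 rose and 1 fell (median log2 fold change 0.53). Psmb9 rose to 93.8 ± 7.28 against 28.01 ± 2.5999 CPM, and Tapbp, tapasin, which loads peptides, to 155 ± 24.02 against 70.1 ± 3.13 CPM. The member that fell was H2-T3, a non-classical class I gene whose product binds CD8αα, at 32.5 ± 7.998 against 82.5 ± 22.7 CPM. Of 12 tested class II genes 7 rose and 1 fell, or 3 and 1 with all 9 libraries. Another 5 were too low to test, and members near 0 reads in WT could enter the test only through their KO reads. Cd74, the invariant chain, stood at 1.03 and 1.03 CPM in WT and 152, 153 and 359 CPM in KO, and KO replicate 3 held more than either other KO library. Its call was lost when WT replicate 1, WT replicate 2 or KO replicate 1 was left out. Ciita, the class II transactivator, rose from 1 read by a KO to WT ratio of 40.2 (counting interval 6.92 to 1616), and H2-Ab1 rose to 47.8 ± 21.7 against 2.31 ± 0.368 CPM. H2-Aa, at 0 reads in WT, rose at least 29.5-fold. H2-Aa and H2-Ab1 did not pass with all 9 libraries (adjusted p = 0.21 and 0.091). The member that fell was Ifi30, a thiol reductase of lysosomes, at 180.03 ± 5.49 against 255 ± 12.9 CPM. The summed level of 15 genes shared by leukocytes was 84.9 and 86.2 CPM in WT and 108, 106 and 124 CPM in KO. Of them 2 were tested: Lcp1 stood at 94.8 ± 4.14 against 64.8 ± 1.58 CPM and Ptpn6, which fell, at 8.899 ± 2.57 against 17.7 ± 3.24 CPM, and neither passed with all 9 libraries (adjusted p = 0.55 and 0.17), nor Ptpn6 with DESeq2 or without WT replicate 2, KO replicate 2 or KO replicate 3. The 25 neutrophil and macrophage genes summed to 28.8 and 30.3 CPM in WT and 47.2, 44.1 and 55.6 CPM in KO, with 15 of them at 0 reads in all 5 libraries. Of 4 tested, Cd14, a receptor for lipopolysaccharide, rose to 21.6 ± 2.21 against 4.63 ± 0.736 CPM and Lyz2, the myeloid lysozyme and a close copy of Lyz1, to 11.1 ± 4.31 against 2.06 ± 0.00411 CPM (with all 9 libraries, adjusted p = 0.0045 and 0.34), and the part of such cells in the class II values was not tested.

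The wider interferon list was mixed: 17 of 39 tested members rose and 8 fell, or 10 and 4 with all 9 libraries, and the median log2 fold change was 0.45. Parp9 and its partner Dtx3l, which act as a pair in ADP-ribosylation and ubiquitin ligation, rose to 125 ± 17.3 against 29.03 ± 3.94 CPM and 106 ± 2.74 against 39.3 ± 1.896 CPM, and Parp14 to 70.1 ± 8.84 against 21.6 ± 2.95 CPM. Irf8, a transcription factor better known from myeloid cells, rose to 213 ± 3.005 against 91.7 ± 23.4 CPM. Irf7, a master regulator of the response to type I interferon, stood at 18.9 ± 3.64 against 20.6 ± 2.14 CPM and did not pass.

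In a list of NF-κB subunits, IκB proteins and kinases and adaptors of the pathway, 8 of 17 tested rose and 0 fell, or 5 and 1 with all 9 libraries, where the one lower is Nfkbia. Bcl3, a nuclear IκB protein that works with p50 and p52 dimers, stood at 28.8 and 23.1 CPM in WT and 85.5, 75.4 and 64.7 CPM in KO. Chuk, the kinase IKKα, rose to 104 ± 1.898 against 59.6 ± 2.06 CPM, Traf3 to 54.7 ± 4.44 against 29.8 ± 1.39 CPM, and Tbk1 to 63.7 ± 4.69 against 37.001 ± 2.11 CPM. Rel, the c-Rel subunit, rose from 2 reads by a KO to WT ratio of 13.2 (counting interval 3.39 to 113). The subunit Nfkb1 stood at 116 ± 15.3 against 97.9 ± 3.802 CPM and the kinase Ikbkb at 76.7 ± 9.36 against 73.5 ± 0.147 CPM, and neither passed. Of 27 tested genes known to be induced by NF-κB 14 rose and 3 fell (median log2 fold change 0.41), or 8 and 2 with all 9 libraries. Icam1, an adhesion molecule for leukocytes, stood at 5.66 and 7.698 CPM in WT and 67.4, 41.1 and 42.3 CPM in KO. Zc3h12a, an RNase that limits inflammatory transcripts, rose to 74.3 ± 13.2 against 17.2 ± 1.06 CPM, Irf1 to 236 ± 42.2 against 125 ± 4.84 CPM, and Pglyrp1, which binds bacterial peptidoglycan, to 282 ± 46.3 against 103 ± 18.7 CPM. The 3 that fell were Plk2 (8.75 ± 3.32 against 26.5 ± 6.12 CPM), Bcl2l1, which encodes the survival protein Bcl-xL (23.03 ± 2.58 against 39.1 ± 5.74 CPM), and Gadd45b (15.1 ± 1.102 against 23.6 ± 2.86 CPM), whose call was lost in 10 of 13 alternatives, all 9 libraries among them (adjusted p = 0.24). Bcl2l1 lost its call with DESeq2 and without WT replicate 2. The WT libraries themselves differed in rapidly inducible genes. The 30 AP-1 and immediate early genes summed to 1432 and 4349 CPM in WT replicates 1 and 2. In KO they summed to 2409, 1890 and 1915 CPM, and the cause was not tested. Chemokines were mostly too low to test. Of 6 tested 0 rose and 1 fell, Ccl25, which draws gut-homing lymphocytes to the small intestine, at 317 and 351 CPM in WT and 101, 108 and 104 CPM in KO.

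Sensors of bacteria split by kind. Of 22 tested, 14 rose and 4 fell, and the 4 that fell were the Naip genes, whose products detect bacterial flagellin and secretion needles. Naip5 stood at 332 and 219.7 CPM in WT and 81.3, 66.4 and 68.997 CPM in KO, with Naip6 at 24.3 ± 3.24 against 76.8 ± 11.4 CPM, Naip1 at 56.1 ± 9.19 against 147 ± 3.703 CPM and Naip2 at 65.9 ± 7.73 against 123 ± 11.02 CPM. These genes are close copies, and reads could be shared between them. Tlr1, a surface receptor for bacterial lipopeptides, rose to 18.5 ± 5.93 against 1.799 ± 0.367 CPM. Of 31 tested genes of TNF receptors and cell death 10 rose (32.3%) and 5 fell (16.1%), or 8 and 3 with all 9 libraries. Over all genes tested, 17.8% rose and 18.1% fell. Tnfrsf1a and Tnfrsf1b, the TNF receptors, rose to 119 ± 11.3 against 49.8 ± 2.81 CPM and 73.96 ± 8.52 against 33.9 ± 3.57 CPM, and Bcl2l15 and Bak1, which belong to the Bcl-2 family, to 87.5 ± 6.32 against 24.7 ± 4.31 CPM and 217 ± 15.4 against 115 ± 7.401 CPM. Zbp1, a sensor that can start necroptosis, rose from 3 reads by a KO to WT ratio of 30.7 (counting interval 10.3 to 151). Cdkn1a, a p53 target that stops the cell cycle, fell to 42.4 ± 1.77 against 81.7 ± 22.4 CPM. In the IL-1 family and inflammasome list 3 of 13 tested rose (23.1%) and 4 fell (30.8%). Those that fell were Nlrp6 and 3 gasdermin C copies: Gsdmc4 stood at 10.5 ± 1.81 against 75.01 ± 21.7 CPM, Gsdmc2 at 15.7 ± 0.944 against 49.6 ± 14.1 CPM and Gsdmc3 at 4.94 ± 2.61 against 32.9 ± 16.7 CPM.

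**Figure D2:**
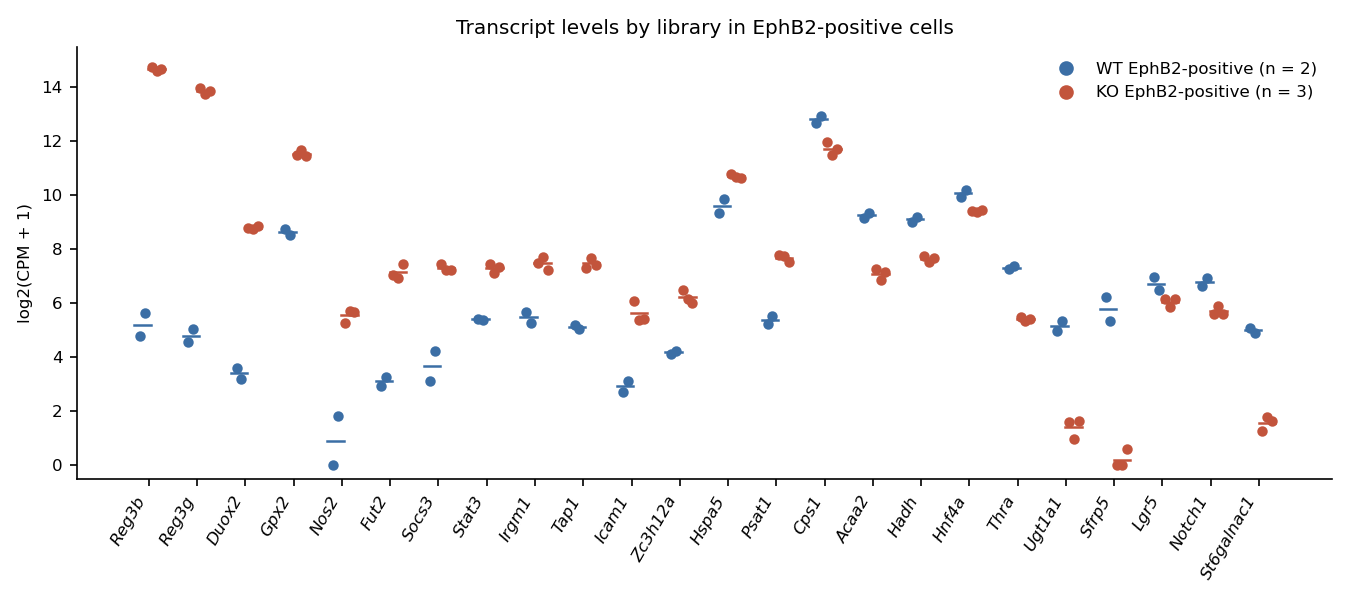
Each point is the level of a gene in 1 library, as log2(CPM + 1) on the vertical axis, with WT EphB2-positive libraries in blue (n = 2), KO EphB2-positive libraries in red (n = 3) and a bar at the mean of each group's log2 values. Reg3b and Reg3g rise from among the low genes to the highest levels shown. The 24 genes were chosen with their results known, and the genotypes do not overlap for any of them. Of all 10399 genes tested, the KO libraries lay above both WT libraries in 2964 and below both in 3057.

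Most genes tested that help fold and export proteins rose in KO. Hspa5, the chaperone BiP of the endoplasmic reticulum, stood at 659.8 and 945 CPM in WT and 1795, 1659.8 and 1593 CPM in KO, and Xbp1, the transcription factor of the unfolded protein response that secretory cells depend on, at 146 and 157 CPM in WT and 393, 312 and 354 CPM in KO. Of the 24 tested endoplasmic reticulum stress genes 19 rose and 0 fell, with a median log2 fold change of 0.77. Manf, Sdf2l1 and Hyou1, which assist folding there, rose to 256 ± 8.45 against 87.6 ± 8.18 CPM, 107 ± 2.2003 against 28.8 ± 7.21 CPM and 493 ± 51.8 against 188 ± 31.6 CPM. The other 5 did not pass.

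Genes of amino acid supply followed the same direction. Psat1, which makes serine, stood at 37.1 and 45.2 CPM in WT and 218, 216 and 184 CPM in KO, and Asns, asparagine synthetase, at 51.5 and 72.4 CPM in WT and 228, 227 and 205 CPM in KO. Of 39 tested tRNA synthetase and amino acid response genes 26 rose and 3 fell (median log2 fold change 0.52), or 17 and 2 with all 9 libraries. Wars, tryptophanyl-tRNA synthetase, rose to 382 ± 54.9 against 130.3 ± 10.8 CPM, Slc7a5, which imports large neutral amino acids, to 189 ± 23.1 against 64.2 ± 2.05 CPM, and Shmt2, of mitochondrial one-carbon metabolism, to 353 ± 43.2 against 167 ± 15.7 CPM. The 3 that fell were Ddit4, an inhibitor of mTORC1, at 82.9 ± 5.81 against 165 ± 4.39 CPM, Sesn2, a leucine sensor that also restrains mTORC1, at 6.35 ± 1.67 against 17.5 ± 1.49 CPM, and Pck2 at 72.05 ± 7.14 against 132 ± 9.35 CPM. Pck2 did not pass with all 9 libraries (adjusted p = 0.063).

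Ribosome assembly factors and ribosomal proteins moved apart. Of 49 tested ribosome biogenesis genes 28 rose and 0 fell (median log2 fold change 0.42), or 5 with all 9 libraries. Ddx21, a nucleolar helicase, rose to 578 ± 101 against 289 ± 42.7 CPM, and Ncl and Npm1, the main nucleolar proteins, to 2718 ± 235 against 1801 ± 117 CPM and 2034 ± 70.2 against 1336 ± 114 CPM. Of 76 tested cytosolic ribosomal protein genes 0 rose and 53 fell. The shift was small, with a median log2 fold change of -0.34, and with all 9 libraries none of them passed in either direction. Rpl37a stood at 749 and 685 CPM in WT and 529, 461 and 512 CPM in KO and Rps19 at 988 and 997 CPM in WT and 796, 663 and 722 CPM in KO. Of 31 tested subunits of the constitutive proteasome 19 rose and 0 fell (median log2 fold change 0.40), or 7 with all 9 libraries, Psmd3 rising to 382 ± 3.58 against 249 ± 2.05 CPM and Psma3 to 281 ± 46.3 against 175 ± 11.98 CPM.

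Most genes of fat oxidation fell, at steps along the whole pathway. Acaa2, the thiolase that completes each round of mitochondrial beta-oxidation, stood at 568 and 659 CPM in WT and 152, 116 and 143 CPM in KO. No KO library reached a WT library (log2 fold change -2.17 ± 0.12, adjusted p = 1.04e-11). Of 39 tested genes of fatty acid oxidation and ketogenesis 2 rose and 31 fell, with a median log2 fold change of -0.91. Hadh and Hadha, of the same beta-oxidation cycle, fell to 202 ± 16.1 against 553 ± 55.2 CPM and 255 ± 1.76 against 553 ± 53.04 CPM, Acot1, a thioesterase, to 45.1 ± 6.83 against 136 ± 12.3 CPM, and Acat1, which also serves ketone metabolism, to 173 ± 19.03 against 398 ± 26.5 CPM. Ppara, the nuclear receptor that drives this pathway, stood at 20.1 and 39.004 CPM in WT and 9.03, 9.42 and 5.88 CPM in KO. The 2 that rose were Ppard, another receptor of the same family, at 87.6 ± 9.76 against 40.9 ± 2.46 CPM, and Acadl, the long-chain acyl-CoA dehydrogenase, at 454 ± 53.6 against 306 ± 22.4 CPM.

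Genes of cholesterol synthesis moved the other way, with 18 of 37 tested members of the cholesterol and fatty acid synthesis list higher and 1 lower (median log2 fold change 0.44), or 10 and 0 with all 9 libraries. Idi1, Fdps and Lss, enzymes between mevalonate and the sterols, rose to 228 ± 28.5 against 113 ± 4.22 CPM, 187 ± 18.3 against 94.3 ± 5.26 CPM and 81.7 ± 3.405 against 34.9 ± 6.47 CPM. Sqle, squalene epoxidase, stood at 71.5 and 85.7 CPM in WT and 163, 142 and 148 CPM in KO. The member that fell was Srebf1, which encodes the transcription factor SREBP-1, at 103 ± 6.83 against 134 ± 9.54 CPM, a call lost with all 9 (adjusted p = 0.13), with DESeq2 and without WT replicate 2, KO replicate 2 or KO replicate 3. Srebf2 stood at 214 ± 17.96 against 172 ± 30.5 CPM and did not pass.

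**Figure D3:**
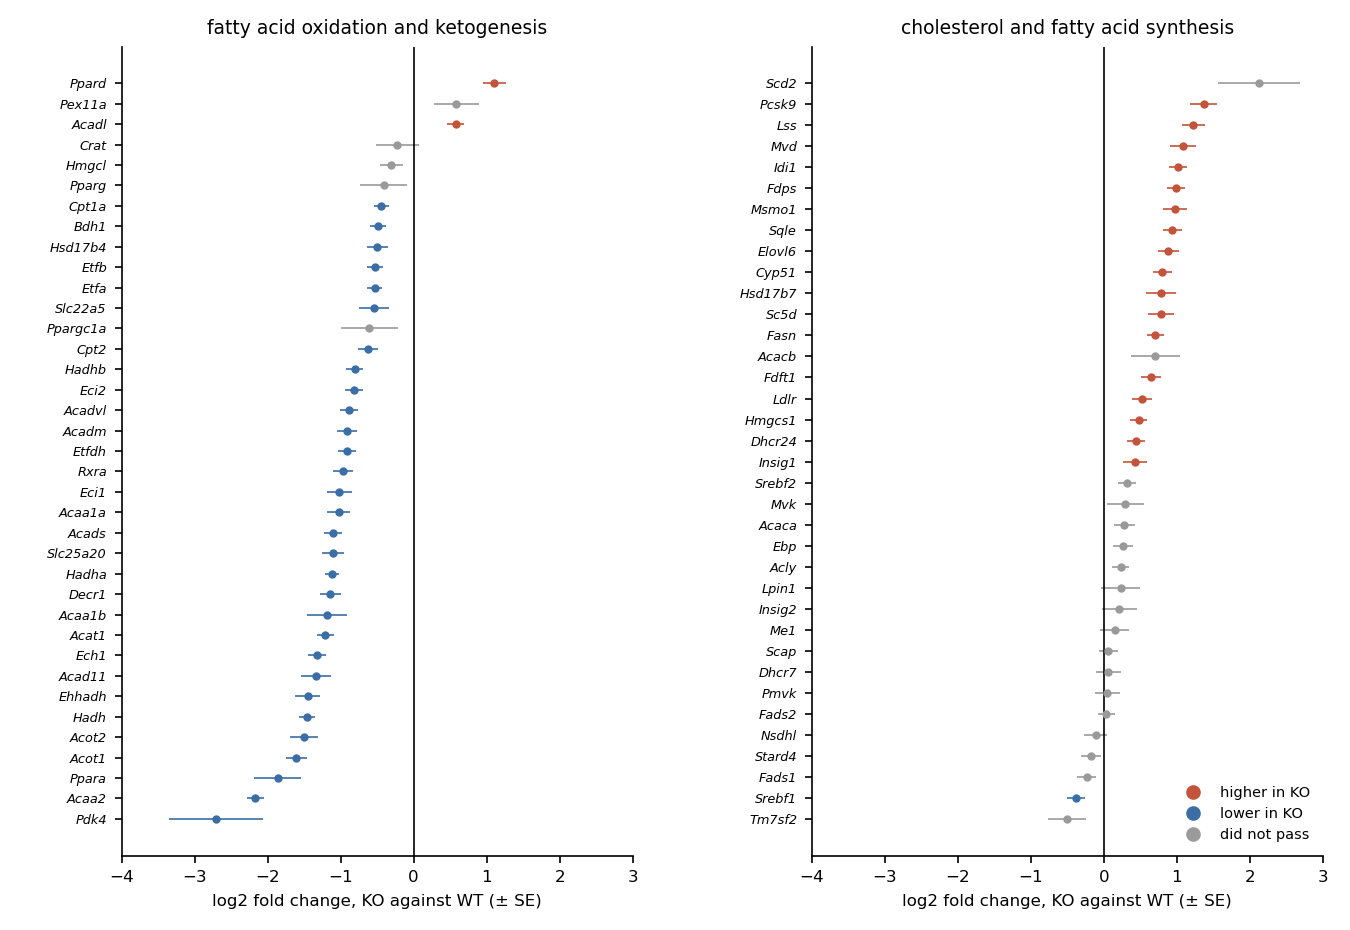
Log2 fold change of KO against WT with its SE (horizontal axis) for tested members of the fatty acid oxidation and ketogenesis list (37 of 39 genes shown, left) and of the cholesterol and fatty acid synthesis list (36 of 37 shown, right); red points were called higher, blue points lower and grey points did not pass. Blue points fill the left panel (30 lower, 2 higher), and red points the upper part of the right panel (17 higher, 1 lower).

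Many detoxifying enzymes of the enterocyte fell. Of 19 tested cytochrome P450 genes and partners 1 rose and 14 fell (median log2 fold change -1.22), and of 33 UGT, SULT and glutathione transferase genes 4 rose and 18 fell (median -0.75), or 1 and 12 with all 9 libraries. Ugt1a1, which conjugates bilirubin, stood at 30.4 and 40.03 CPM in WT and 2.08, 0.991 and 2.14 CPM in KO, and Sult1d1, a sulfotransferase, at 63.3 and 55.4 CPM in WT and 7.64, 3.47 and 2.67 CPM in KO. Cyp2c68 fell to 5.699 ± 2.16 against 33.7 ± 3.203 CPM, Cyp2j6 to 56.1 ± 1.28 against 152 ± 1.15 CPM and Por, the reductase that feeds electrons to P450 enzymes, to 55.01 ± 2.57 against 94.3 ± 18.3 CPM. Reads of UGT and CYP2C copies could be shared. The P450 that rose was Cyp51, which belongs to cholesterol synthesis, at 148 ± 14.2 against 85.6 ± 9.26 CPM. All 5 tested carboxylesterase genes fell, or 3 with all 9 libraries, with Ces2e at 74.4 ± 18.4 against 285 ± 91.01 CPM. In the retinoid list 0 of 12 tested rose and 7 fell, with Aldh1a1 and Aldh1a7, close copies that oxidise retinal, at 20.4 ± 9.05 against 72.7 ± 8.21 CPM and 10.7 ± 3.38 against 48.3 ± 4.46 CPM.

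Genes of the suckling enterocyte were mostly lower: 16 of 24 tested fell and 2 rose (median log2 fold change -0.94), or 10 and 0 with all 9 libraries. Cps1, carbamoyl phosphate synthetase of the gut's citrulline and arginine pathway, stood at 6609.8 and 7856 CPM in WT and 4021, 2862 and 3378 CPM in KO, and Oat, ornithine aminotransferase, at 3341 and 3700.2 CPM in WT and 966, 822 and 888 CPM in KO. These were the largest losses in CPM among the genes called. Otc, which joins carbamoyl phosphate to ornithine, fell to 35.5 ± 8.94 against 183 ± 6.17 CPM, and Amn, part of the receptor by which neonatal enterocytes take up protein, to 19.4 ± 1.67 against 99.7 ± 7.795 CPM. Prdm1, the transcription factor that holds the neonatal programme, stood at 45.8 and 71.8 CPM in WT and 22.9, 22.3 and 22.5 CPM in KO. The 2 that rose, Clec2h (48.6 ± 7.895 against 17.7 ± 5.42 CPM) and Glul, glutamine synthetase (126 ± 18.03 against 77.9 ± 9.24 CPM), did not pass with all 9 libraries (adjusted p = 0.24 and 0.16).

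Genes of surface digestion and uptake fell at many but not all steps. Of 18 tested brush border hydrolases 3 rose and 11 fell (median log2 fold change -1.92), or 1 and 8 with all 9 libraries, and of 27 lipid absorption genes 5 rose and 11 fell, or 1 and 8. Mep1a, a meprin protease, stood at 121 and 195 CPM in WT and 21.5, 10.4 and 13.9 CPM in KO. Mme, the peptidase neprilysin, was at least 33.8-fold lower, a call lost in the fit to 8 libraries. Dpp4, a dipeptidyl peptidase, fell to 80.6 ± 2.92 against 139 ± 0.642 CPM, Alpi, alkaline phosphatase, to 18.1 ± 1.97 against 89.6 ± 40.9 CPM, and Fabp2, the intestinal fatty acid binding protein, to 44.5 ± 12.97 against 344 ± 88.7 CPM. Plin2, which coats lipid droplets, fell to 51.1 ± 9.37 against 160.1 ± 40.02 CPM, and Dgat1, which makes triglyceride, to 71.97 ± 6.12 against 156 ± 32.4 CPM. Of 27 nutrient transporters 9 rose and 11 fell, or 4 and 9 with all 9 libraries. Those of the villus surface such as Slc34a2, for phosphate (12.8 ± 3.405 against 130.3 ± 24.8 CPM), and Slc6a19, for neutral amino acids (2.77 ± 0.867 against 42.9 ± 16.3 CPM), fell, as did S100g, the vitamin D-dependent calcium binder (2.77 ± 3.02 against 70.4 ± 11.5 CPM). Slc1a1, a glutamate transporter, rose to 78.1 ± 6.85 against 23.9 ± 1.86 CPM. Since these are bulk samples, fewer cells of a type in the sort and less RNA per cell cannot be told apart.

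Among transcription factors of the enterocyte more fell than rose, with 4 of 37 tested higher and 18 lower (median log2 fold change -0.29), or 0 and 10 with all 9 libraries. Hnf4a, which drives the absorptive programme, stood at 985 and 1192 CPM in WT and 681, 675 and 697 CPM in KO, and Thra, the thyroid hormone receptor that guides maturation of the gut, at 154 and 164 CPM in WT and 43.8, 40.2 and 42.3 CPM in KO. Creb3l3, of lipid metabolism, fell to 17.9 ± 6.94 against 78.4 ± 19.8 CPM, Nr1i3, the xenobiotic receptor CAR, to 1.28 ± 0.763 against 13.6 ± 1.79 CPM, and Rxra, the shared partner of many nuclear receptors, to 57.4 ± 5.18 against 112 ± 12.5 CPM. Id2, an inhibitor of bHLH factors, fell to 6.58 ± 1.96 against 34.95 ± 3.704 CPM. Hnf4g, a close relative of Hnf4a, stood at 116 ± 9.73 against 124 ± 6.66 CPM and did not pass. The intestinal identity factor Cdx2 stood at 278 and 270.5 CPM in WT and 181, 241 and 205 CPM in KO and lost its call with all 9 libraries (adjusted p = 0.15) and without WT replicate 1, KO replicate 1 or KO replicate 3.

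**Figure D4:**
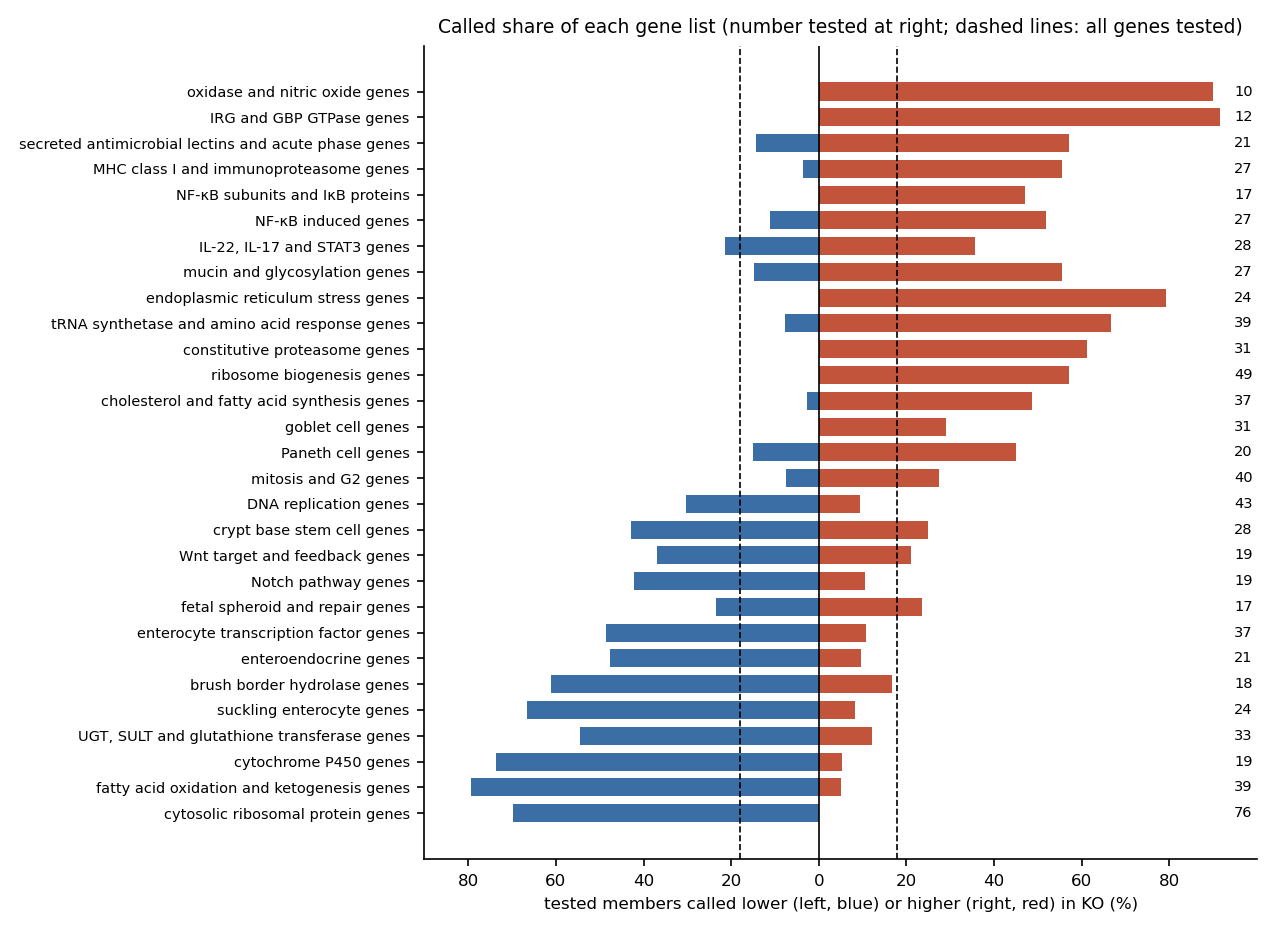
For 29 gene lists, the share of tested members called higher (red, to the right) or lower (blue, to the left) in KO, in percent, with the number tested at the right; dashed lines mark the shares over all genes tested, 17.8% higher and 18.1% lower. Oxidases and interferon-inducible GTPases have the longest red bars, fatty acid oxidation and P450 genes the longest blue bars, and stem cell and fetal lists have members on both sides.

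Stem cell genes went both ways, with 7 of 28 tested higher and 12 lower (median log2 fold change -0.28), or 4 and 3 with all 9 libraries. Lgr5, the Wnt-amplifying receptor that marks crypt base stem cells, stood at 125 and 89.8 CPM in WT and 70.9, 57.5 and 70.6 CPM in KO, and Axin2, a direct Wnt target, at 182 and 168 CPM in WT and 68.8, 63.95 and 84.5 CPM in KO. The KO libraries lay below both WT libraries for each, and neither call was kept with all 9 libraries (adjusted p = 0.296 and 0.067). Ascl2, a stem cell transcription factor, fell to 18.5 ± 3.68 against 41.4 ± 17.9 CPM and Smoc2 to 121 ± 21.6 against 167 ± 7.602 CPM; both calls were lost with all 9 (adjusted p = 0.197 and 0.62). Without WT replicate 1, Lgr5, Ascl2 and Smoc2 did not pass, and Smoc2 did not pass without KO replicate 2. Olfm4, an abundant secreted marker of these cells, stood at 3539 and 3307 CPM in WT and 1540.4, 1234 and 2235 CPM in KO and did not pass (adjusted p = 0.071). Tert, the catalytic subunit of telomerase, fell to 2.92 ± 0.736 against 33.7 ± 6.84 CPM, and Rnf43, which removes Wnt receptors from the surface, to 78.2 ± 11.1 against 174 ± 9.83 CPM. Cd44, an adhesion receptor of crypt cells, rose to 154 ± 12.4 against 53.2 ± 9.92 CPM, and Prom1 and Aqp4 to 252 ± 16.5 against 137 ± 6.81 CPM and 229.8 ± 29.3 against 119 ± 20.6 CPM.

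Genes of the Wnt and Notch pathways also had members on both sides. Among 19 tested Wnt target and feedback genes 4 rose (21.1%) and 7 fell (36.8%), or 3 and 3 with all 9 libraries. Over all genes tested, 17.8% rose and 18.1% fell. Sfrp5, a secreted Wnt inhibitor, stood at 73.6 and 39.5 CPM in WT and had 1 read over the 3 KO libraries, a ratio of 0.00332 (counting interval 8.37e-05 to 0.0187). Ccnd1, cyclin D1, rose to 352 ± 49.2 against 183 ± 8.36 CPM and Lgr4 to 310.5 ± 21.7 against 194 ± 8.75 CPM, whereas Myc stood at 117 ± 11.03 against 127 ± 28.2 CPM and did not pass. Of 19 Notch pathway genes 2 rose and 8 fell, or 1 and 5. Notch1 stood at 100.4 and 121 CPM in WT and 47.2, 58.5 and 48.1 CPM in KO. Lfng, which tunes Notch to its ligands, fell to 5.996 ± 1.59 against 32.4 ± 14.6 CPM, and Hes1, the main Notch target that holds back secretory fate, to 55.2 ± 4.07 against 100.5 ± 11.1 CPM. Adam10, the protease that cleaves Notch, rose to 222 ± 34.5 against 123 ± 7.15 CPM. Ihh, by which the epithelium signals to the stroma, fell to 20.2 ± 6.54 against 56.5 ± 10.8 CPM.

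The cell cycle showed small shifts in both directions and no uniform change. Of 43 tested DNA replication genes 4 rose and 13 fell (median log2 fold change -0.14), and of 40 mitosis genes 11 rose and 3 fell (median 0.12). With all 9 libraries these became 1 and 0, and 0 and 0. Mki67, the usual marker of cycling cells, stood at 714 and 605 CPM in WT and 656, 645 and 599.6 CPM in KO and did not pass. Rrm2, a subunit of ribonucleotide reductase, rose to 222 ± 28.1 against 119 ± 2.42 CPM. It was 1 of the 4 DNA replication genes that rose, where 13 fell. Of the Myc family, Mycn fell to 1.097 ± 0.464 against 15.4 ± 7.299 CPM and Mycl to 24.5 ± 3.01 against 63.997 ± 12.1 CPM.

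Secretory lineages differed from each other. In the goblet list 9 of 31 tested rose and 0 fell (median log2 fold change 0.29), or 4 with all 9 libraries, and in the Paneth list 9 of 20 rose and 3 fell (median 1.16), or 3 and 0. Muc2, the gel-forming mucin of goblet cells, stood at 134 and 124 CPM in WT and 477, 354 and 720.5 CPM in KO, and Mmp7, the protease of Paneth cells that activates defensins, at 6.69 and 6.67 CPM in WT and 95.9, 98.2 and 168 CPM in KO. KO replicate 3 was the highest library for both. Muc2 lost its call with all 9 libraries (adjusted p = 0.200) and without WT replicate 1, WT replicate 2 or KO replicate 1. Tff3, another goblet product, and Lyz1, lysozyme of Paneth cells, stood at 412 and 341 CPM in WT and 451, 315 and 609 CPM in KO and at 32.9 and 18.5 CPM in WT and 75.7, 165 and 236 CPM in KO, and neither passed (adjusted p = 0.596 and 0.081). The Paneth list summed to 832 and 1043 CPM in WT and 1525, 1340.5 and 1915 CPM in KO, and the goblet list to 3986 and 3638 and 6084, 4702 and 7202 CPM. The part of secretory cells in the values of Retnlb and the other secreted proteins was not tested. Enteroendocrine genes were lower more often than higher: of 21 tested 2 rose and 10 fell (median log2 fold change -0.99), or 1 and 5 with all 9 libraries. Pyy, a satiety hormone of the distal gut, stood at 68.4 and 68.8 CPM in WT and 9.03, 9.42 and 13.9 CPM in KO, and Nts, neurotensin, at 102 and 75.95 CPM in WT and 14.6, 4.46 and 5.88 CPM in KO. The KO libraries lay below both WT libraries for each. Sct, secretin, fell to 19.9 ± 5.01 against 45.7 ± 0.0915 CPM, while Tac1, which encodes substance P, rose to 20.6 ± 5.39 against 4.63 ± 3.64 CPM. Chga, shared by most endocrine cells, stood at 61.8 and 29.8 CPM in WT and 53.5, 41.6 and 55.6 CPM in KO and did not pass.

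The series title speaks of a fetal phenotype, and genes of fetal intestinal spheroids and of repair were looked at for that reason. Of 37 in the table, 17 could be tested, of which 4 rose and 4 fell (median log2 fold change -0.10), or 2 and 1 with all 9 libraries. The share was 23.5% in each direction, near the 17.8% and 18.1% over all genes tested. Ly6a (Sca-1), a surface protein of such spheroids, was not detected in WT (0 reads) and stood in KO at 17.4, 83.8 and 57.2 CPM, higher by at least 73.3-fold. The KO libraries spread widely, and it passed with all 9 libraries (adjusted p = 0.016) but not with the 5 (adjusted p = 0.13). Ly6e, of the same family, stood at 61.8 and 57.5 CPM in WT and 134, 184 and 186 CPM in KO. Krt19, a keratin, stood at 1664 and 1766 CPM in WT and 811, 760.5 and 942 CPM in KO. Spp1 had 0 reads in every library, Clu 4 reads in WT replicate 1 alone, and Gja1 6 reads in WT and 6 in KO. Among 12 tested oncofetal and imprinted growth genes 1 rose and 6 fell, or 1 and 0 with all 9 libraries. Igf2bp1, an RNA-binding protein of fetal tissues, stood at 18.01 and 27.7 CPM in WT and 36.1, 48.6 and 36.4 CPM in KO. Its call was lost without WT replicate 1. Igf2, the fetal growth factor, stood at 27.3 and 18.99 CPM in WT and 12.5, 6.94 and 5.35 CPM in KO and lost its call with all 9 (adjusted p = 0.11). None of the 36 Hox genes in the table was high enough to be tested. Of 13 tested genes of Polycomb complex PRC2, which silences developmental genes, 1 rose and 1 fell, 7.69% each, below the shares over all genes tested. Suz12 stood at 156 and 135 CPM in WT and 211, 252 and 235 CPM in KO and Phf19, an accessory factor, at 15.95 and 26.7 CPM in WT and 8.34, 7.44 and 1.605 CPM in KO.

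Among the other genes with the steepest falls, Mamdc4 stood at 305 and 580.4 CPM in WT and 20.8, 9.91 and 8.56 CPM in KO. Folr1, a folate receptor, stood at 79.3 and 140.1 CPM in WT and 7.64, 0.496 and 4.28 CPM in KO. Cym, the milk-clotting protease chymosin, stood at 946 and 646 CPM in WT and 54.9, 11.9 and 7.49 CPM in KO. All 3 lay far below WT in every KO library. Nr2e3, an orphan nuclear receptor of photoreceptors, fell to 2.95 ± 2.88 against 135 ± 23.7 CPM, and Cyp2w1 to 1.78 ± 0.891 against 62.95 ± 6.05 CPM. Lect2 had 41.7 and 34.4 CPM in WT and 0 reads in KO, at least 67.5-fold lower. Ptprt, a receptor phosphatase, fell from 74.1 and 78.5 CPM in WT to 3 reads over the KO group, a ratio of 0.00738 (counting interval 0.00151 to 0.0218). Cym lost its call when WT replicate 1, WT replicate 2, KO replicate 2 or KO replicate 3 was left out.

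The same genotypes were compared in EphB2-negative cells (2 KO and 2 WT libraries), and the values are given beside those above for 18 genes, all fitted on the 9 libraries. Reg3g stood at 36.1 and 481 CPM in WT and 33773 and 41326 CPM in KO in EphB2-negative cells, with a log2 fold change of 7.18 ± 1.14 against 9.09 ± 1.24 in EphB2-positive cells. For Socs3 the changes were 4.10 ± 0.44 and 3.61 ± 0.45, for Irgm1 2.22 ± 0.24 and 2.02 ± 0.23, and for Bcl3 1.80 ± 0.20 and 1.53 ± 0.19, in the same order. The direction was the same in both sorts for 17 of the 18 genes. The exception, Muc2, did not pass in either (-0.75 ± 0.91 and 2.01 ± 0.91). The 18 genes were chosen with earlier results of these data known, and the share over all genes was not worked out. The count of 17 therefore says nothing about genes outside this set. The difference between the sorts was tested directly, as the interaction of genotype and sort: 1430 of 11577 genes (12.4%) passed, and of the 18 genes 1 did, Mmp7, whose log2 fold change was 4.17 ± 0.45 in EphB2-positive and 1.39 ± 0.43 in EphB2-negative cells (difference 2.78 ± 0.63, adjusted p = 0.026). For Fabp2 and Hadha the differences were -1.86 ± 0.55 and -0.68 ± 0.23 and did not pass (adjusted p = 0.059 and 0.074), nor did that of Lgr5 (1.89 ± 0.81, adjusted p = 0.16). The labels do not say whether same-numbered EphB2-positive and EphB2-negative libraries came from 1 animal, and the fit took them as independent. These tests rest on WT EphB2-negative libraries that differ from each other: Reg3b stood at 24.2 CPM in one and 902 CPM in the other. Without the latter, the difference for Reg3b turned from 2.44 to -1.80. The count of genes that passed ran from 32 to 3996 when single libraries were left out.

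**Figure D5:**
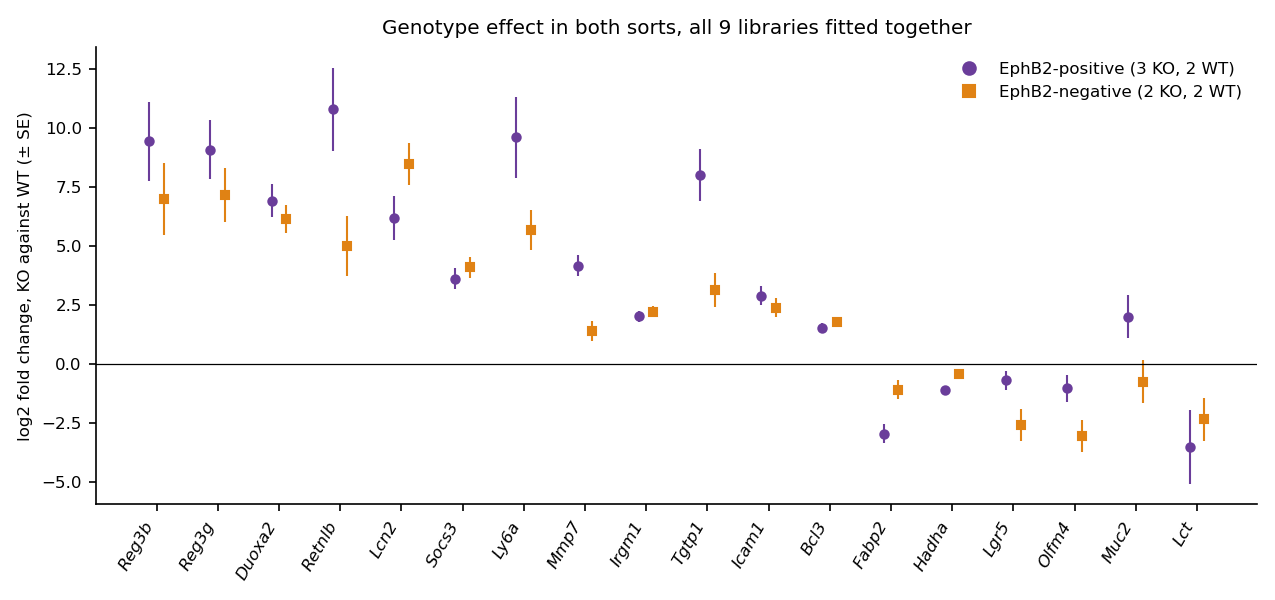
Log2 fold change of KO against WT with its SE (vertical axis) for 18 genes in EphB2-positive (circles, 3 KO and 2 WT libraries) and EphB2-negative cells (squares, 2 KO and 2 WT), all 9 libraries fitted together. The direction is shared for 17 of these 18 genes, which were chosen with earlier results known, and the gap between the sorts passed its own test for Mmp7. Fold changes of Retnlb and Ly6a, with 0 reads in WT EphB2-positive cells, depend on the prior count of the fit.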

How the data were processed

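Amplified cDNA of sorted cells was sequenced on an Illumina instrument (labels). The authors deposited read counts per gene, and the submitters' processing notes name Bowtie2, HTSeq, DESeq2, FastQC, CASAVA 1.4 and mm10. Strand setting and annotation: not given in the sources used here. Thus overlapping genes and close copies may share reads. The 5 summary lines of each table (reads outside genes 9.97 to 13.4% of reads) were left out. Libraries had 1503972 to 2074076 reads in 24421 genes. The 5 EphB2-positive libraries were fitted with edgeR 4.0.16 (TMM scaling, filterByExpr, robust quasi-likelihood test, Benjamini-Hochberg adjusted p under 0.05), which was tested on simulated data. The difference between sorts was fitted on all 9 libraries. CPM are means ± SD (n = 2 WT, 3 KO); log2 fold changes are ± SE. A gene with 0 reads in a group was bounded at 3 reads over the group, and ratios with 1 to 3 reads carry an exact 95% counting interval. Alternatives were other scalings, filters, tools, library sets, a replicate block and each library left out. The members, lists and tests were chosen with earlier results of these data known. Named were Nfkbia, Ephb2, fixed cell markers, the 6 members with the lowest p of each list and members that did not pass, and, among called genes with at least 10 CPM and no overlap, the 15 with the highest and lowest fold changes and the 10 with the largest CPM gains and losses. Ppara, St3gal1 and the members named because a list had 4 or fewer of their direction were chosen after their values were seen. Some genes are not reported here. Coordinates are from GENCODE vM21 (GRCm38).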

Additional observations from a re-analysis of the deposited data

Results flagged for a closer look

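Mmp7 was the 1 gene of 18 set side by side whose genotype effect differed between the sorts by its own test. In EphB2-negative cells it stood at 9.13 and 23.2 CPM in WT and 37.8 and 46.5 CPM in KO. The difference in log2 fold change was 2.78 (SE 0.63, edgeR adjusted p = 0.026). It kept its sign in all 15 alternatives and did not pass in 6 of them: with voom (adjusted p = 0.12) and without WT EphB2-positive replicate 1 (0.088), WT EphB2-positive replicate 2 (0.11), KO EphB2-positive replicate 2 (0.051), KO EphB2-negative replicate 1 (0.077) or KO EphB2-negative replicate 2 (0.086). Groups of 2 and 3 libraries are too small for a test of single outlying libraries.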

How the results depend on the processing

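Of the 192 genes named in the text as called in EphB2-positive cells, none changed direction under those of the 13 alternatives in which they were tested (Rel could not be tested without KO replicate 2 or 3); 167 stayed called with all 9 libraries fitted together, 187 with DESeq2, 191 with voom, 191 with DESeq2 size factors and 185 with the replicate block. DESeq2 lost the calls of Bcl2l1, Fuk, Gadd45b, Ptpn6 and Srebf1, and the replicate block those of Cdx2, Folr1, Fuk, Gadd45b, Ptpn6, Srebf1 and St3gal1. Fitting all 9 libraries gave 1746 calls (812 higher, 934 lower) and DESeq2 gave 2357 (1233 higher, 1124 lower), against 3734 (1853 and 1881). Leaving out each library gave 2820 to 3346 calls (1423 to 1670 higher, 1397 to 1676 lower). Where 1 WT library remained, it was assumed to vary like the KO libraries.

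Same-numbered libraries of the genotypes shared only a number (r of their deviations from the group means -0.07 and -0.03, 2 pairs), and a fit with the replicate block called 3013 genes. Between the sorts, the differences of replicate 1 from replicate 2 correlated at 0.20 in WT and -0.03 in KO. For the difference between the sorts the replicate block gave 895 calls (435 higher) against 1430 (757 higher, 673 lower), and voom called 484 higher. Leaving out each library gave 32 to 3996 calls (6 to 2129 higher, 26 to 1867 lower), with 32 without WT EphB2-positive replicate 2, 40 without KO EphB2-negative replicate 2 and 3996 without WT EphB2-negative replicate 2. The cause was not tested.

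Differences between the sorts that changed sign when single libraries were left out ranged from -1.80 to 3.41 for Reg3b, -0.91 to 2.81 for Reg3g, -4.98 to 1.80 for Duoxa2 (-0.92 with voom), -5.82 to 1.31 for Lcn2, -1.42 to 0.26 for Socs3, -0.38 to 0.061 for Irgm1, -0.29 to 1.03 for Icam1 and -2.75 to 0.27 for Lct. In EphB2-positive cells 5 genes that did not pass changed sign, with log2 fold changes from -0.30 to 0.75 for Chga, -0.033 to 0.13 for Ikbkb, -0.27 to 0.013 for Irf7, -0.16 to 0.069 for Mki67 and -0.33 to 0.13 for Myc. At this depth 3 reads are 1.49 to 2.08 CPM, and genes at or below that level could not be compared.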
